A study of Mus musculus with 24 samples.

Results

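The genes Saa3, Tnnt1, Sgip1, Tctex1d1, Nkg7, Ak4 and Tiam1 were among those with the largest differences between leukemic and normal granulocyte monocyte progenitors of the mouse. They were chosen from that difference on these arrays, so the difference itself is given below as a description with no test. The 7 genes had 12 probe sets that carry 1 gene symbol, of 20380 such probe sets for 12393 genes on the array. Every one of the 12 is accounted for below.

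Granulocyte monocyte progenitors (GMP) are bone marrow cells that make neutrophils, monocytes and macrophages and cannot renew themselves for long. The study asked how leukemia oncogenes change their expression soon after entry and in established leukemia. All 24 arrays carried RNA of C57BL/6 mice, in 7 groups. Sorted, untransduced cells were normal GMP (4 arrays) and normal LSK cells (3 arrays, titled HSC), a marrow fraction that holds the blood stem cells. Leukemic GMP (L-GMP, 3 arrays) were leukemia stem cells of a MOZ-TIF2 model with the surface phenotype of GMP. Normal GMP transduced with an empty GFP vector (GFP, 3 arrays), MOZ-TIF2 (MT2, 4 arrays), NUP98-HOXA9 (NHA9, 3 arrays) or AML1-ETO (AE, 4 arrays) were taken as GFP-positive cells 36 hours after infection. MOZ-TIF2, NUP98-HOXA9 and AML1-ETO are fusion proteins of acute myeloid leukemia. The 4 transduced groups, GFP included, share infection and culture, and the sorted normal groups do not. Nothing in the labels tells if the arrays of a group came from different animals, cultures or leukemias. The p-values thus rest on a spread between samples that could be technical alone.

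Each gene has a known role outside this setting. Saa3 encodes serum amyloid A3, an acute phase protein that macrophages and other cells secrete under inflammatory signals such as interleukin 1. Tnnt1 encodes the troponin T of slow skeletal muscle, which ties the troponin complex to tropomyosin. Sgip1 encodes an adaptor of clathrin-mediated endocytosis known mainly from brain, and Tctex1d1 a protein with the domain of Tctex-type dynein light chains. Nkg7 encodes a membrane protein of the cytotoxic granules of natural killer and T cells. Ak4 encodes an adenylate kinase of the mitochondrial matrix. Tiam1 encodes an exchange factor that activates the small GTPase Rac.

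Values are log2 expression. A linear value of 60 (5.91 on the log2 scale), the background level the study used, serves as the detection limit here. Where the mean of a group was under it, a fold is given as a lower bound, the other group against 60. The share of probe sets over 60 was 46.1% to 48.3% on the arrays, which were scaled jointly, so this likeness is no measure of array quality. Of 10 GMP markers on the array, 10 had a mean over 60 in each of the 7 groups, LSK included, so this count does not tell the groups apart. The GMP markers summed to 49101 to 54542 on normal GMP arrays, 28258 to 49146 on L-GMP arrays and 18695 to 25438 on LSK arrays. Kit, the stem cell factor receptor, was at 8.02 in L-GMP against 10.27 in normal GMP, and Fcgr3, an Fc receptor, at 7.42 against 9.32. The LSK markers summed to 7541 to 9511 on the LSK arrays and to 1827 to 3410 on the normal GMP arrays. L-GMP array 1 stood apart from the other L-GMP arrays. Its Gapdh and actin control probes had the largest excess of 3' over 5' signal of all 24 arrays (4.82 and 3.45 log2), and its mature neutrophil markers summed to 52230 against 4741 and 2421 on arrays 2 and 3. On the brightest probe sets of Saa3, Tnnt1, Sgip1, Tctex1d1 and Nkg7 it was the L-GMP array nearest to normal GMP, and on the second Sgip1 probe set the farthest. The brightest probe sets of Ak4 and Tiam1 were under the detection limit on all L-GMP arrays and give no order. The part of these measures in the gene values was not tested. Array file names carry a tag, A on 15 arrays, B on 5 and none on 4, whose meaning the labels do not give. Of the L-GMP arrays only array 1 has tag A, and so do GMP arrays 1 to 3. The group means give relative transcript amount in bulk RNA, so fewer cells of a type and less RNA per cell cannot be told apart.

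Of the genes on the raised side, Saa3, Sgip1 and Tctex1d1 are shown by the 250 bases before their annotated starts, since Saa3 has inducible relatives and regulators on the array and Sgip1 and Tctex1d1 are close neighbours that were raised together. The sequences are from RefSeq on GRCm38.p6, written 5′ to 3′ on the strand of the gene, for chr7:46715677-46715926 (minus strand, Saa3), chr4:102759885-102760134 (plus strand, Sgip1) and chr4:102978453-102978702 (plus strand, Tctex1d1). Capitals mark matches to TTGCNNAA, letters bound by C/EBP factors, in Saa3, and to GGGNNNNNCC, letters bound by NF-kB, in Sgip1 and Tctex1d1, each searched on both strands.
Saa3: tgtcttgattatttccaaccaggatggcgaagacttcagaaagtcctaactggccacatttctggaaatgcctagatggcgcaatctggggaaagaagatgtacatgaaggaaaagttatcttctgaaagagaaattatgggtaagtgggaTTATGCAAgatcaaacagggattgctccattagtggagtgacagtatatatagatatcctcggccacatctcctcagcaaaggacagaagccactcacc
Sgip1: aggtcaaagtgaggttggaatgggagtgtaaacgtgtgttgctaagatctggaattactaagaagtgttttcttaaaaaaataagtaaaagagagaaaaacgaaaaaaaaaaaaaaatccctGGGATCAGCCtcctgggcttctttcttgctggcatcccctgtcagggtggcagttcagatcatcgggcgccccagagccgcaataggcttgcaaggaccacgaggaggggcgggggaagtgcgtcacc
Tctex1d1: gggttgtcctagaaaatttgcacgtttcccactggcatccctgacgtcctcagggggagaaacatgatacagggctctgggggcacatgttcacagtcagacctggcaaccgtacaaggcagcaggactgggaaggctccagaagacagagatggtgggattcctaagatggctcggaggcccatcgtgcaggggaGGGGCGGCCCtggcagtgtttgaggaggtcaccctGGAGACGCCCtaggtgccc

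The Saa3 window held 1 C/EBP match, starting 99 bases before the start, and no NF-kB match. C/EBP letters occurred in 9.56% of the 32851 RefSeq windows of this length. The Sgip1 window held 1 NF-kB match at 128 bases and the Tctex1d1 window 2, at 54 and 19 bases, letters found in 45.8% of all windows. All 3 windows lacked the letters TGANTCA (AP-1), TGTGGT (Runx) and TATAAA, which 6.75%, 14% and 12.4% of windows held. No match overlapped another. A match is a run of letters and says nothing of binding.

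**Figure D1:**
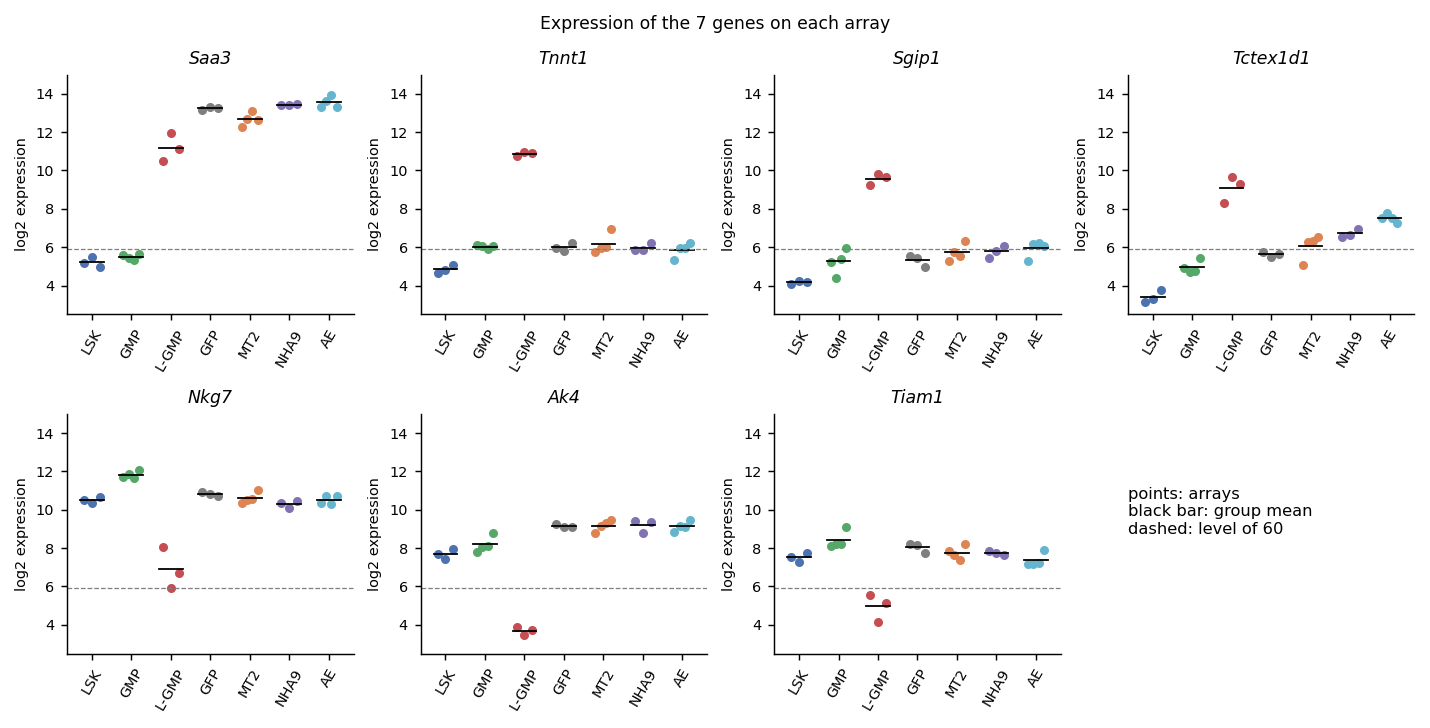
Log2 expression of the 7 genes on each of the 24 arrays by group, with 1 point per array at the brightest probe set of the gene, black bars at the group means and the dashed line at 60. The L-GMP arrays lie beyond all 21 other arrays in 6 genes, and in Saa3 between the sorted normal cells and the 4 transduced groups.

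Saa3 was under the detection limit in the normal sorted cells and high everywhere else. Normal GMP arrays read 5.58, 5.42, 5.32 and 5.62, and LSK arrays 5.15, 5.49 and 4.99. The L-GMP arrays read 10.48, 11.93 and 11.13, at least 38.7-fold higher than normal GMP, and did not overlap with either normal group. The difference to normal GMP, 5.70 log2, ranked 3 of the 834 genes that were higher in L-GMP without overlap of arrays. Ranks here and below take the means as deposited. Where a mean is under the detection limit, as for Saa3 in normal GMP, the rank is not a measured order. Over all 11439 probe sets that passed the filter of that comparison, 17.6% did not overlap and 11.2% were higher.

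The empty-vector cells had more Saa3 than the leukemic cells. GFP arrays read 13.15, 13.30 and 13.26, MT2 arrays 12.25, 12.69, 13.08 and 12.61, NHA9 arrays 13.43, 13.41 and 13.45, and AE arrays 13.33, 13.62, 13.93 and 13.29. L-GMP was thus below every transduced array, with a mean 2.06 log2 under GFP and 1.47 under MT2, while GFP exceeded normal GMP by 7.75 log2, at least 161-fold. GFP and normal GMP differ in vector, infection and culture, whose parts cannot be told apart. Saa3 was the only one of the 7 genes in which L-GMP did not lie outside all other arrays.

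Some listed acute phase and inflammatory genes shared the course of Saa3 between L-GMP and GMP, and most of those over the filter did between GFP and GMP. Saa1, Saa2 and Saa4, its liver-expressed relatives, had means under 60 in each of the 7 groups. Of 13 listed acute phase and inflammatory genes over the filter in L-GMP against GMP, 4 were higher without overlap, Socs3 by 2.50 log2, Cebpb by 1.70, Cebpd (9.48 against 7.88) and Il6ra (8.49 against 7.13), and 1 was lower, Il1r1 (5.43 against 6.25). Socs3 encodes a feedback inhibitor of cytokine signals, and Cebpb and Cebpd encode C/EBP factors. The list's median difference was 0.43, against 0.03 over all probe sets of the comparison. The shares of 11.2% higher and 6.41% lower over all probe sets also stand behind each count of listed genes in L-GMP against GMP below. In GFP against GMP, 10 of 12 were higher without overlap, with a median of 0.99 against -0.04 over all probe sets, of which 14.4% were higher. Socs3 was at 10.34 in GFP and 4.21 in GMP, and Fpr2, a formyl peptide receptor that serum amyloid A binds, at 7.76 and 5.72.

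Monocyte and macrophage markers, like Saa3, were lower in sum in the sorted normal cells than in the other groups. Their summed linear level was 1427 to 2148 on LSK arrays, 3187 to 4840 in normal GMP, 9729 to 14372 in L-GMP, 8132 to 9028 in GFP, 6867 to 9879 in MT2, 11525 to 11718 in NHA9 and 11877 to 15410 in AE. Of 12 such markers on the array, 6 had a mean over 60 in normal GMP, 8 in L-GMP and 8 in GFP. L-GMP was above every GFP array in the marker sum and below every GFP array in Saa3. Single markers went both ways between L-GMP and GFP. Csf1r, the brightest and so the heaviest in the sum, was higher (13.27 against 12.49), as was Cd68 (9.85 against 9.53). Ccr2 (7.38 against 9.81) and Adgre1 (6.98 against 8.06) were lower, as Saa3 was. The part of these cells in the Saa3 level was not tested.

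**Figure D2:**
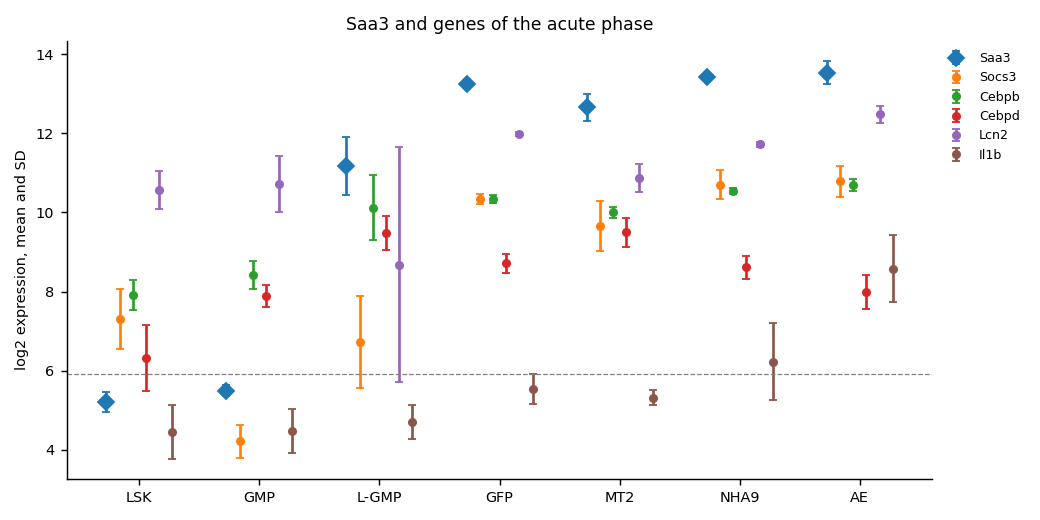
Mean log2 expression of Saa3 (diamonds) and 5 acute phase or inflammatory genes (circles) in the 7 groups, with bars of 1 SD over 3 to 4 arrays and the dashed line at 60. Saa3 is under the line in LSK and GMP and highest in the transduced groups, while Lcn2 in L-GMP has the widest spread, an SD of 2.97.

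Tnnt1 was high in L-GMP and near or under the detection limit in the 6 other groups. The L-GMP arrays read 10.74, 10.94 and 10.91, a spread of 0.10 (SD, n = 3). Normal GMP arrays read 6.09, 6.07, 5.88 and 6.07, close to the detection limit, and LSK arrays 4.67, 4.79 and 5.08, under it. The L-GMP mean was 28.6-fold above normal GMP and at least 31.1-fold above LSK, with no overlap, and the difference to GMP ranked 5 of the 834.

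The transduced groups stayed near the limit. GFP arrays read 5.97, 5.80 and 6.24, MT2 arrays 5.76, 5.93, 6.01 and 6.96, NHA9 arrays 5.85, 5.85 and 6.23, and AE arrays 5.31, 5.97, 5.94 and 6.24. MT2 array 4, at 6.96, was the highest array outside L-GMP.

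Tnnt1 was not accompanied by the rest of the muscle troponin complex. Tnnt2, Tnnt3, Tnni1, Tnni2, Tnni3, Tnnc1 and Tnnc2 had means under 60 in every group; the highest was Tnni2 in L-GMP at 5.79. Of 23 listed troponin and sarcomere genes on the array, 7 passed the filter in L-GMP against GMP and 1 did not overlap, Ckm, the muscle creatine kinase, at 8.01 against 6.27. Muscle and stromal markers over the filter numbered 3 of 12, with Ckm as the 1 higher.

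Sgip1 was measured by a pair of single-symbol probe sets that gave the same picture. On the brighter one, 1425181_at, L-GMP arrays read 9.25, 9.83 and 9.65, normal GMP arrays 5.25, 4.40, 5.40 and 5.96, and LSK arrays 4.08, 4.22 and 4.20. On 1425180_at, L-GMP arrays read 8.57, 8.36 and 8.36, normal GMP arrays 4.33, 4.21, 4.33 and 4.56, and the means of the 6 other groups were all under 60. L-GMP did not overlap with any other group on either probe set. L-GMP was at least 12.7-fold and at least 5.75-fold higher than normal GMP, and the difference to GMP on the brighter one, 4.32 log2, ranked 6 of the 834.

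In the transduced groups the brighter Sgip1 probe set lay around the limit. GFP arrays read 5.56, 5.44 and 4.95, MT2 arrays 5.30, 5.76, 5.56 and 6.32, NHA9 arrays 5.45, 5.81 and 6.06, and AE arrays 5.30, 6.17, 6.24 and 6.04. A further probe set, 1448715_x_at, carries the symbols of Sgip1, Cog6 and Noct and was left out. The clathrin endocytosis genes on the list did not share the leukemic rise in size: of 23 over the filter, 4 were higher without overlap (Ap2a2, Clta, Hip1 and Necap2) and 1 lower (Itsn1), with a median of 0.14. Hip1, a clathrin adaptor, was at 5.99 against 5.02, and Itsn1, a scaffold of endocytic sites, at 5.97 against 6.99.

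Tctex1d1 was graded across the groups rather than raised in L-GMP alone. LSK arrays read 3.15, 3.29 and 3.78, and normal GMP arrays 4.93, 4.70, 4.76 and 5.46. GFP arrays followed at 5.77, 5.49 and 5.65, and MT2 arrays at 5.06, 6.26, 6.33 and 6.55. NHA9 arrays read 6.55, 6.65 and 6.95, AE arrays 7.53, 7.79, 7.52 and 7.27, and L-GMP arrays 8.28, 9.67 and 9.31.

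In that order of means, LSK, GMP and GFP lay under the detection limit, so their order is not a measured one. MT2 overlapped with GFP, and the NHA9 and AE arrays did not overlap with each other. The L-GMP mean was 9.09 ± 0.72 (SD, n = 3), at least 9.07-fold above normal GMP and 8.21-fold above MT2. The difference to GMP, 4.12 log2, ranked 8 of the 834. Of 8 listed dynein and Tctex light chain genes over the filter, 1 did not overlap in L-GMP against GMP, Dync1h1, the cytoplasmic dynein heavy chain, 0.57 log2 higher.

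Nkg7 was strongly expressed in every group but the leukemic one. Normal GMP arrays read 11.73, 11.84, 11.64 and 12.06, and LSK arrays 10.51, 10.36 and 10.68. L-GMP arrays read 8.08, 5.90 and 6.71, so that array 2 was just under the detection limit and array 1 well over it. The mean of 6.90 ± 1.10 (SD, n = 3) was 30.3-fold under normal GMP, the largest fall of the 475 genes that were lower in L-GMP without overlap. Over all probe sets, 6.41% were lower without overlap.

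Transduced cells kept a level near that of LSK. GFP arrays read 10.93, 10.80 and 10.72, MT2 arrays 10.34, 10.49, 10.55 and 11.02, NHA9 arrays 10.34, 10.09 and 10.48, and AE arrays 10.35, 10.71, 10.31 and 10.71. L-GMP was below all of them, 13.0-fold under MT2 and 15.2-fold under GFP. T and NK cell markers were at or near background in every group. Of 15 on the array, 0 had a mean over 60 in LSK, GMP, L-GMP, MT2 or NHA9, and 1 did in GFP and in AE, where 2 passed the filter. Cd3e, a T cell receptor subunit, was at 5.92 in GFP, and Ccl5, a chemokine, at 5.92 in AE. Their summed level was 298 to 434 on the normal GMP arrays. Perforin (Prf1), granzyme A (Gzma) and granzyme K (Gzmk) had means of 4.90, 5.01 and 4.90 in normal GMP.

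Among 7 cytotoxic granule genes over the filter in L-GMP against GMP, 3 were lower without overlap and 1 higher, where 6.41% of all probe sets were lower and 11.2% higher. Srgn, the granule proteoglycan serglycin, was at 11.34 against 13.13, and Cst7, a cathepsin inhibitor, at 9.78 against 11.09, while Gzmb was at 4.66 against 5.93, near the limit. Lamp1, a lysosomal membrane protein, was higher, at 11.62 against 10.48. The median of the 7 was 0.22.

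Ak4 lost its signal in the leukemic cells. On 1450387_s_at, the brightest of its 4 probe sets, normal GMP arrays read 7.82, 8.04, 8.12 and 8.77, LSK arrays 7.67, 7.45 and 7.95, and L-GMP arrays 3.86, 3.48 and 3.73. All 3 L-GMP arrays were under the detection limit, at least 4.86-fold lower than normal GMP. The difference of -4.50 log2 ranked 2 of the 475, a rank that rests on an L-GMP mean of 3.69, under the limit.

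The 36-hour groups were above the sorted ones on that probe set. GFP arrays read 9.27, 9.11 and 9.08, MT2 arrays 8.77, 9.16, 9.29 and 9.45, NHA9 arrays 9.39, 8.80 and 9.37, and AE arrays 8.84, 9.14, 9.11 and 9.48. The 4 means lay between 9.14 and 9.18.

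The other Ak4 probe sets were dimmer and carried less of the difference. On 1421830_at, L-GMP arrays read 4.76, 5.07 and 4.84 and normal GMP arrays 6.78, 6.39, 6.98 and 8.12, again without overlap. On 1421829_at and 1421831_at the group means ran from 4.95 to 6.03, at or near background, and L-GMP overlapped with GMP. Averaging the 4 probe sets changed the difference to GMP from -4.50 to -1.96. Of 13 other genes of adenylate kinases and nucleotide balance over the filter, 1 was higher without overlap (Prkag1, a subunit of the AMP-activated kinase, by 0.50) and 1 lower (Adk, adenosine kinase, by -0.60). Ak3, the matrix relative of Ak4, was at 7.07 in L-GMP and 7.18 in GMP.

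Tiam1 was likewise under the limit in L-GMP only. On 1418057_at, normal GMP arrays read 8.13, 8.21, 8.22 and 9.10, LSK arrays 7.52, 7.30 and 7.72, and L-GMP arrays 5.58, 4.13 and 5.16. L-GMP was at least 5.69-fold lower than normal GMP, and the difference of -3.46 log2 ranked 7 of the 475. A second probe set, 1453887_a_at, had means between 3.46 and 3.83 in all groups and carried no signal.

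Tiam1 was over the limit on every transduced array. GFP arrays were at 8.21, 8.16 and 7.76, MT2 arrays at 7.85, 7.62, 7.36 and 8.19, NHA9 arrays at 7.87, 7.73 and 7.64, and AE arrays at 7.15, 7.16, 7.23 and 7.91. AE arrays 1 to 3 lay below every LSK and normal GMP array, and the GFP, MT2 and NHA9 arrays within their range. Of 18 other Rac activators and effectors over the filter in L-GMP against GMP, 1 was higher without overlap (Rhog, a Rac-related GTPase, by 0.42) and 1 was lower.

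**Figure D3:**
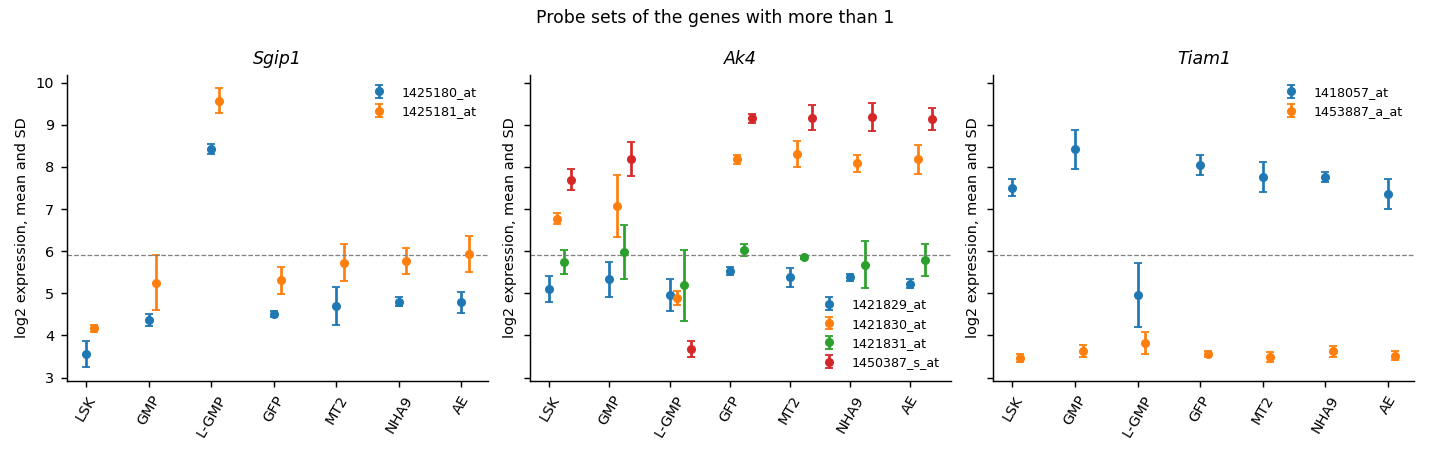
Mean log2 expression of each single-symbol probe set of Sgip1, Ak4 and Tiam1 in the 7 groups, with bars of 1 SD over 3 to 4 arrays and the dashed line at 60. Both Sgip1 probe sets are high in L-GMP, 2 of the 4 Ak4 probe sets fall there, and Tiam1 1453887_a_at is under the line throughout.

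Genes just beside the 7 in rank were as follows. On the raised side, Hpgd (5.95), Igf2bp3 (5.71), Ms4a6d (4.90) and Slfn4 (4.16) also had differences over that of Tctex1d1, the last of the 4 raised genes, and Cdkn1c (3.71) came after it. On the lowered side, Pf4 (-3.96), Ccl9 (-3.79), Rab38 (-3.68) and Prg2 (-3.62) lay between Ak4 and Tiam1, and Ccnd2 (-3.40) came after. The L-GMP arrays lay outside all 21 other arrays for 6 of the 7 genes. Over 12337 probe sets that share was 3.8%. L-GMP also lay apart from LSK, MT2 and GFP taken singly in all 7 genes, where 38.5%, 25.3% and 34.9% of probe sets did. Since L-GMP and normal GMP arrays chose the genes, nothing is read from these counts.

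The comparisons of each oncogene with the empty vector used arrays that did not choose the genes, and their tests are limma's with Benjamini-Hochberg adjustment over all probe sets tested. After 36 hours Tctex1d1 was higher than in GFP in AE and in NHA9, and no other of the 7 genes passed the threshold of 0.05 against GFP. With so few genes tested, the counts cannot be set apart from the shares of all probe sets given below, and nothing is read from them.

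In AE, Tctex1d1 was 1.89 log2 above GFP (SE 0.16, limma adjusted p = 0.00115), at least 3.08-fold, and higher in 4 of 4 arrays. This was 1 of 7 genes tested, where 11% of all 11393 probe sets were called and 8.75% were higher. It was 1.90 in tag A arrays, which hold 1 AE array. No array left out ended the call. Tiam1 was at -0.68 (SE 0.21, limma adjusted p = 0.0698) with AE array 4 inside the GFP range. Without that array it was at -0.86 with an adjusted p of 0.0201. Saa3 was at 0.30 (SE 0.18, limma adjusted p = 0.289). Sgip1 was at 0.62 (SE 0.25, limma adjusted p = 0.131), and without AE array 1 at 0.83 with an adjusted p of 0.00907. That array, at 5.30 inside the GFP range, is the only AE array with tag A, the tag of all GFP arrays. Without it, oncogene and tag cannot be told apart. The GFP mean of Sgip1, 5.31, was under the detection limit.

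In NHA9, Tctex1d1 was 1.09 log2 above GFP (SE 0.15, limma adjusted p = 0.0442), at least 1.76-fold, and higher in 3 of 3 arrays. It was 1 of 6 genes tested, where 0.2% of 10981 probe sets were called and 0.191% were higher. The call is marginal: under 16 other settings its adjusted p ran from 0.0166 to 0.564 and the difference from 0.85 to 1.17. Leaving out NHA9 array 1 (0.131), NHA9 array 2 (0.105) or GFP array 1 (0.137), 2 (0.223) or 3 (0.17) ended it. Nkg7 was at -0.52 (SE 0.15, limma adjusted p = 0.298), below GFP on 3 of 3 arrays, and Sgip1, which passed the filter in neither NHA9 nor MT2 against GFP, was 0.46 higher.

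In MT2, the oncogene of the leukemic cells, 0 of 6 genes tested passed, where 11.8% of 11113 probe sets did. Saa3 came nearest, at -0.58 (SE 0.17, limma adjusted p = 0.0546, unadjusted p = 0.00697), the 1 of the 6 under an unadjusted p of 0.05. The methods' t-test also called 0. Saa3 was below GFP on 4 of 4 arrays, opposite in sign to its leukemic difference from GMP, and without MT2 array 3 it was at -0.72 with an adjusted p of 0.0144. Tctex1d1 was at 0.42 (SE 0.30, limma adjusted p = 0.38) with MT2 array 1 at 5.06, and without that array the difference was 0.75 with an adjusted p of 0.0226. Ak4 was at 0.01 (SE 0.16, limma adjusted p = 0.966), Tnnt1 at 0.16 (SE 0.25, limma adjusted p = 0.697), Nkg7 at -0.22 (SE 0.16, limma adjusted p = 0.389) and Tiam1 at -0.29 (SE 0.19, limma adjusted p = 0.348).

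**Figure D4:**
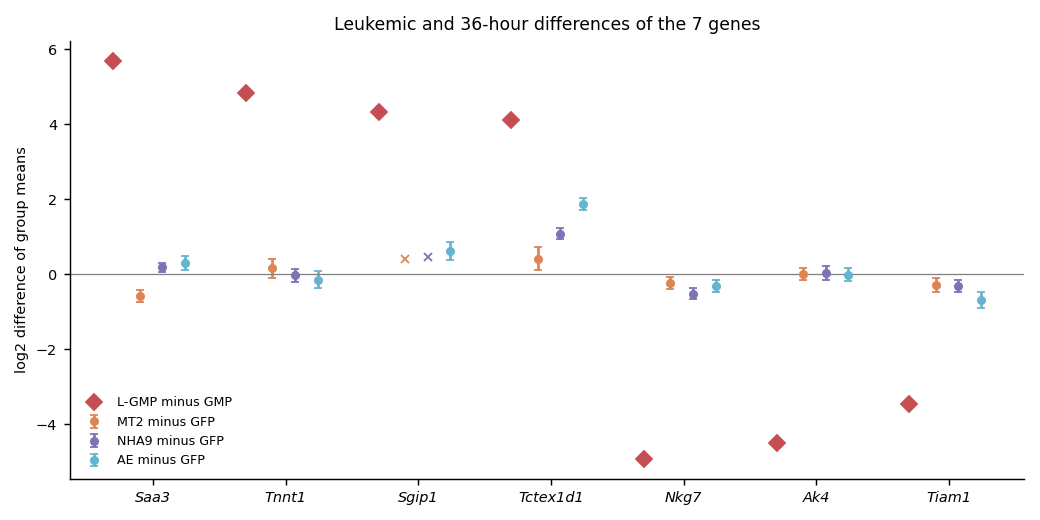
Log2 differences of group means for the 7 genes: L-GMP minus GMP (diamonds, no test) and each oncogene minus GFP (circles, bars of 1 limma SE). Crosses mark Sgip1 in MT2 and NHA9, which passed no filter and was not tested. The circles lie between -0.68 and 1.89, and the diamonds between -4.92 and 5.70.

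Differences between oncogenes were tested in the 14 transduced arrays. Saa3 was lower in MT2 than in NHA9 by -0.77 log2 (SE 0.18, limma adjusted p = 0.0219) and than in AE by -0.89 (SE 0.17, limma adjusted p = 0.00162), with no overlap of arrays in either. Leaving out MT2 array 1 or 4 or NHA9 array 1 or 2 ended the call against NHA9 (adjusted p 0.0529 to 0.0857). Tctex1d1 was lower in MT2 than in AE by -1.48 (SE 0.25, limma adjusted p = 0.000689), 2.79-fold. In NHA9 against AE, Tctex1d1 differed by -0.81 (SE 0.27, limma adjusted p = 0.0893) without overlap, the 1 unadjusted p under 0.05 there. All told, 1 of 7 genes was called in MT2 against NHA9 (7.12% of 11632 probe sets, 3.89% lower), 2 in MT2 against AE (27.7%, 15.8% lower) and 0 in NHA9 against AE (6.99%). The mature neutrophil markers, like Saa3, were lower in MT2 than in the other transduced groups. Their sums were 7778 to 20264 on MT2 arrays and 25770 to 31674 in NHA9. They were 28717 to 33157 in AE and 30410 to 35462 in GFP, where Saa3 (13.24) was below NHA9 (13.43) and AE (13.54). The sorted groups did not share this course. Normal GMP arrays had sums of 21274 to 34787, and LSK arrays 17672 to 28554, with Saa3 under the limit. L-GMP array 1 had the highest sum of the L-GMP arrays, 52230, and their lowest Saa3, 10.48. The part of these markers in the Saa3 difference was not tested.

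The listed partners of these genes changed in the same comparisons as follows, where 11.8% of all probe sets were called in MT2, 0.2% in NHA9 and 11% in AE. Of 12 acute phase genes tested in MT2 against GFP, Cebpd rose by 0.79 log2 (SE 0.20, limma adjusted p = 0.0323), and Lcn2, the iron-carrier-binding lipocalin of neutrophils, fell by 1.11 (SE 0.18, limma adjusted p = 0.00873). In AE 3 of 13 rose and 0 fell: Il1b, the cytokine interleukin 1 beta, by 3.04 (SE 0.40, limma adjusted p = 0.00245), Tlr2 by 1.01 (SE 0.25, limma adjusted p = 0.0347) and Tlr4, at 8.30 against 6.95, both receptors for microbial products. The list medians were -0.35 in MT2 and 0.45 in AE, against 0.07 and 0.08 over all probe sets. In NHA9, 0 of 12 were called and 2 had an unadjusted p under 0.05.

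Of 24 clathrin endocytosis genes tested in AE against GFP, 4 rose and 0 fell, where 8.75% of all probe sets rose. Dab2, an endocytic adaptor, rose by 3.05 (SE 0.32, limma adjusted p = 0.00137) and Hip1 by 1.39 (SE 0.22, limma adjusted p = 0.00559), followed by Itsn1 (7.23 against 6.65) and Necap2 (9.37 against 8.88). In MT2 and NHA9, 0 of 23 were called, with 2 and 4 at an unadjusted p under 0.05. Dynein and Tctex light chains had 0 of 8 called against GFP in each oncogene, although Tctex1d1 itself rose in AE and NHA9. At an unadjusted p under 0.05 there were 0 in MT2, 1 in NHA9 and 2 in AE. Troponin and sarcomere genes had 0 of 7 called in each, and 0, 0 and 2 at that unadjusted level.

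Of 12 nucleotide balance genes, Ak3 rose in MT2 by 0.54 (SE 0.14, limma adjusted p = 0.0386) and in AE by 0.75 (SE 0.21, limma adjusted p = 0.0492), where Ak4 was at 0.01 and -0.01. Nme4, a mitochondrial nucleoside diphosphate kinase, rose in MT2 by 0.72 (SE 0.14, limma adjusted p = 0.0152), and Dck, deoxycytidine kinase, fell in AE by 0.84 (SE 0.21, limma adjusted p = 0.0339). Of 16 Rac genes in AE, 3 rose, the exchange factors Trio (0.87, SE 0.17, limma adjusted p = 0.0134) and Arhgef7 (0.76, SE 0.13, limma adjusted p = 0.0083) and the actin regulator Nckap1l (9.09 against 8.40), while 0 fell. Of 6 cytotoxic granule genes, Lyst, a lysosome trafficking regulator, fell in MT2 by 0.67 (SE 0.14, limma adjusted p = 0.0196).

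Between the sorted normal groups, Tnnt1, Nkg7, Ak4 and Tiam1 passed the filter. Of these 4 genes 3 were lower in LSK than in GMP without overlap, and Ak4 overlapped. Over 11452 probe sets 29.8% did not overlap and 10.7% were lower in LSK. Saa3, Sgip1 and Tctex1d1 were under the limit in both groups. Tnnt1 was at 4.85 in LSK and 6.03 in GMP, both near or under it. Since the GMP arrays also chose the genes, nothing is read from the count. Nkg7 was 2.47-fold and Tiam1 1.87-fold lower in LSK, so both were higher in normal GMP than in LSK and lower in L-GMP than in either. Between GFP and normal GMP, Saa3 and Ak4 were higher without overlap, Ak4 by 0.97 log2, Nkg7 was lower, 10.82 against 11.82, and Tctex1d1 was under the limit in both. Over 11363 probe sets 28.9% did not overlap, 14.4% higher and 14.5% lower in GFP.

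The likeness of the 7 genes over the 24 arrays is given as Pearson correlations, which is a description only. The arrays share groups, and the genes were chosen for their differences between L-GMP and GMP. That choice by itself tends to make raised genes correlate with each other, lowered genes likewise, and raised with lowered genes inversely. Tnnt1 and Sgip1 correlated at 0.96, Nkg7 and Tiam1 at 0.96, Sgip1 and Tctex1d1 at 0.86, and Tnnt1 and Ak4 at -0.85. Saa3 correlated with Tctex1d1 at 0.66 and with the other 5 between -0.28 and 0.33. Among 7595 genes compared, those most like Saa3 were Ms4a6d (0.98), Cdkn1a (0.97) and Litaf (0.96). For Tnnt1 they were Ogfrl1 (0.97), Sgip1 and Ryr1 (0.95), and for Sgip1 they were Tnnt1, Ogfrl1 (0.94) and Mtmr10 (0.93). Ryr1, a calcium release channel known from skeletal muscle, was at 7.19 in L-GMP and 4.20 in GMP.

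Tctex1d1 was nearest to Gdpd3 (0.92), Renbp (0.92) and Naip6 (0.91). For Nkg7 they were Tiam1, Impdh1 (0.92) and Maoa (0.91), and Tiam1 had Nkg7, Maoa (0.91) and Impdh1 (0.90). Ak4 had Rps4l (0.93), Mitf (0.89) and Rnf181 (0.89). Maoa, which encodes a monoamine oxidase, was at 5.50 in L-GMP and 8.31 in GMP, and Rps4l, a ribosomal protein gene, at 3.45 and 6.77.

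Position on the chromosome set Sgip1 and Tctex1d1 apart as a pair. In the RefSeq order of GRCm38.p6 they were 2 steps apart on chromosome 4 and on the same strand, and Ak4 lay elsewhere on that chromosome. Saa3, Tnnt1 and Nkg7 are on chromosome 7 and Tiam1 on chromosome 16. Of 15 distinct other genes within 10 steps of a member that passed the filter, 2 were higher and 1 lower in L-GMP without overlap, 20% against 17.6% over all probe sets. These were Ush1c near Saa3 (6.01 against 4.28), Leprot near Ak4 (9.41 against 8.74) and Etfb near Nkg7 (11.01 against 11.80).

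**Figure D5:**
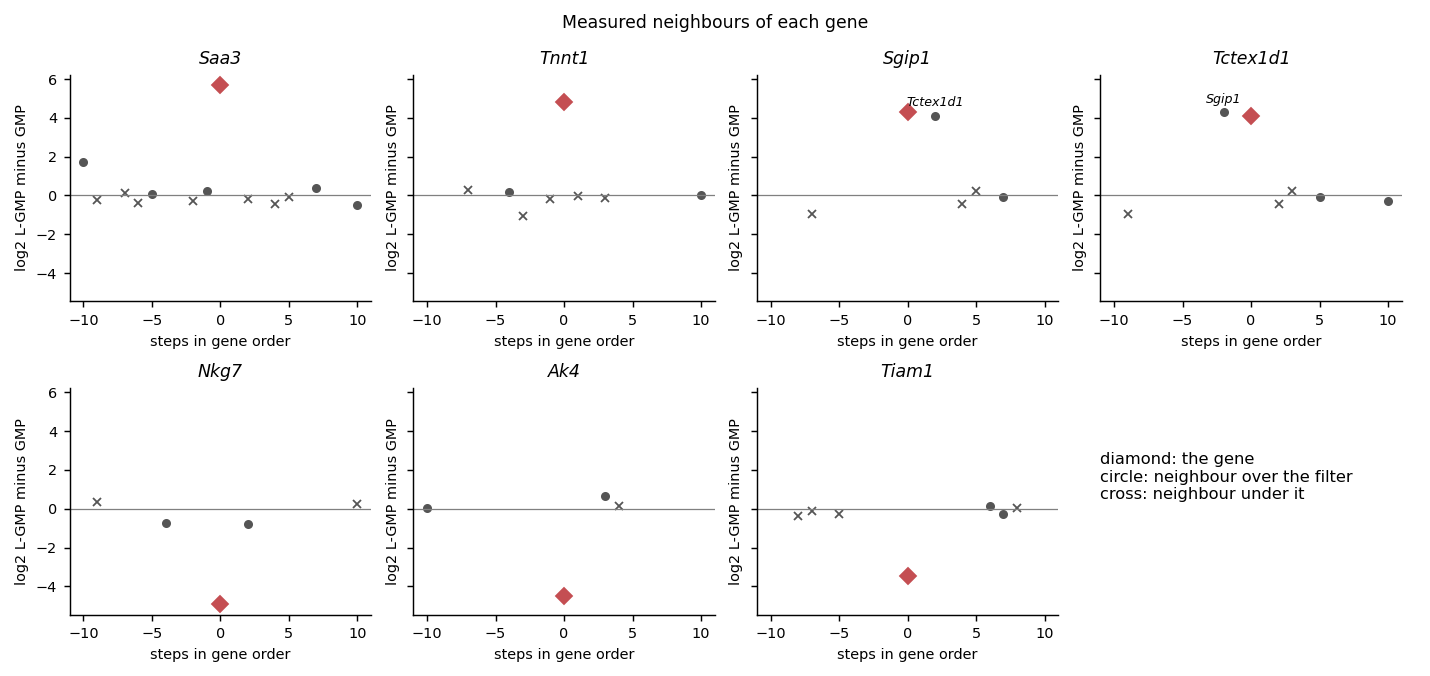
Log2 difference between L-GMP and GMP for each gene (diamond) and its measured neighbours up to 10 steps away in RefSeq gene order (circles passed the filter, crosses did not). Apart from the pair Sgip1 and Tctex1d1, the largest difference of a neighbour over the filter is 1.73, for Ush1c.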

How the data were processed

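Messenger RNA of 24 samples was measured on Affymetrix Mouse Genome 430A 2.0 arrays. The deposited values are log2 expression, which the authors made with GCRMA 2.4.1 from MAS5 cell files after removing outlier arrays, per the design text and the submitters' processing notes. GCRMA adjusts background using probe sequence and scales arrays jointly. The size of a difference that reaches under 60 is not taken as measured here. Of 22690 probe sets, 64 controls were left out, and names came from the platform annotation.

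The genes and gene lists were chosen with earlier results of these data known. All their single-symbol probe sets are described, with the brightest as the gene's value, and for each the 3 most correlated genes. Probe sets were tested where over 60 on at least 2 arrays of 1 compared group, with limma 3.58.1 in R 4.3.3 (lmFit, eBayes, Benjamini-Hochberg, threshold 0.05), checked on simulated data. The study's own Welch test was an alternative. Comparisons with L-GMP or GMP arrays were described, not tested. A tag in the array file names, A on 15 arrays, B on 5 and none on 4, served as an alternative block. The number of arrays limits the precision.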

Additional observations from a re-analysis of the deposited data

Results flagged for a closer look

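Of 21 sets of 4 arrays checked with Dixon's criterion, 3 had an array far from the other 3, where chance flags about 1 in 20. Tnnt1 in GMP array 3 was at 5.88, with a gap of 0.89 of the group's range, just under the detection limit. Tiam1 in GMP array 4 was at 9.10 (gap share 0.91). Tiam1 in AE array 4 was at 7.91 (gap share 0.90), inside the GFP range.

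The response to the oncogenes differed between them in 3 cases by a test of the difference itself. Saa3 was at -0.77 log2 in MT2 against NHA9 and at -0.89 in MT2 against AE, and Tctex1d1 was at -1.48 in MT2 against AE. Limma adjusted p-values were 0.0219, 0.00162 and 0.000689 in that order.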

How the results depend on the processing

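The number of the 7 genes called depended on the setting in most comparisons, and 0 called values changed sign. In MT2 against GFP it went from 0 to 1 with an intensity trend and robust variance and with the mean of a gene's probe sets. In NHA9 against GFP it went from 1 to 0 without a filter, with the trend, with all 24 arrays in 1 fit, with the file name tag as a factor and with the methods' t-test. In AE against GFP it went from 1 to 2 with quantile normalization and to 0 with the t-test. Only 1 AE array has tag A, the tag of the GFP arrays. The tag A setting and the tag factor thus both rest on that AE array against GFP, and their counts have no weight as a test. In MT2 against NHA9 the number of genes called went from 1 to 0 with the t-test, all arrays or the tag factor, and in MT2 against AE from 2 to 0 with the t-test and 4 with the tag factor. Leaving out 1 array gave 0 to 1 (MT2), 0 to 1 (NHA9) and 1 to 2 (AE) against GFP, 0 to 1 in MT2 against NHA9, 2 to 3 in MT2 against AE and 0 to 0 in NHA9 against AE. The cause was not tested, except that fewer arrays leave less power. The labels do not say if replicate numbers pair the samples, and so few arrays cannot decide it. Same-numbered deviations from GFP and MT2 correlated at -0.05, 0.09 and 0.19. Those with NHA9 correlated at -0.16, 0.11 and 0.07, and those with AE at -0.09, -0.12 and -0.29. In MT2 and NHA9 the best match had the same number for numbers 2 and 3 but not for 1, and in AE for none. With a replicate block the count went from 1 to 0 in NHA9 against GFP and from 0 to 1 in NHA9 against AE.

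The L-GMP minus GMP differences kept their sign in every setting, including without L-GMP array 1. The genes were chosen for this difference and the groups did not overlap, so leaving out an array could not change the sign. Nothing is read from the kept signs. Leaving out 1 array gave 5.32 to 6.05 for Saa3, 4.79 to 4.90 for Tnnt1, 4.04 to 4.56 for Sgip1, 3.83 to 4.53 for Tctex1d1, -5.51 to -4.42 for Nkg7, -4.62 to -4.30 for Ak4 and -3.77 to -3.04 for Tiam1. In tag A arrays, which include L-GMP array 1 alone, Nkg7 was at -3.66, Tiam1 at -2.61 and Tnnt1 at 4.73. With the mean of probe sets, Ak4 was at -1.96 and Tiam1 at -1.63. Of 722 recomputed values, 54 that were not called in either setting changed sign, with a size of at most 0.37 afterwards, and were counted as unchanged. Called probe sets without 1 array ranged from 170 to 1607 in MT2, 1 to 202 in NHA9 and 329 to 3061 in AE against GFP. Depth is not defined for arrays, and values under 60 have no order.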
